A study of Mus musculus with 3 samples.

Results

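The 10 genes described here take up glucose, commit it to glycolysis, and decide what becomes of pyruvate. They are the glucose transporter genes *Slc2a1* and *Slc2a3*, the hexokinase genes *Hk1* and *Hk2*, the phosphofructokinase genes *Pfkp* and *Pfkm*, the lactate dehydrogenase genes *Ldha* and *Ldhb*, the pyruvate dehydrogenase kinase gene *Pdk1*, and the monocarboxylate transporter gene *Slc16a1*. They were chosen by name, and all 10 were found once each among 55421 named genes. Expression was measured by RNA-seq of polyA RNA in 3 libraries of ALSCs (replicates 1, 2, and 3), which are mouse stem cells derived from epiblasts of embryonic day 6.5. The mothers were ICR mice and the fathers carried the GOF/GFP reporter transgene, which is driven by *Oct4* regulatory sequence. All libraries came from cells kept in N2B27 medium with Activin A and LIF on fibronectin, and no other group was compared. The study describes its RNA-seq replicates as biological, and whether they were separate lines or separate cultures of a line is not given in the sources used here. The p-values below ask whether these 3 libraries differ by more than counting error, and do not measure the size of the spread. The count columns are named EPI_AL and were matched to the ALSC samples by AL, for Activin A and LIF, and by replicate number. The study also made epiALSCs, which are epiblast stem cells moved into the same medium. It made afALSCs as well, by moving AFSCs, a line similar to epiblast stem cells, into it. RNA-seq is reported for afALSCs, and none is described for epiALSCs. The column names could also be read as cells moved into this medium, so the match is not certain.

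Several steps of glucose metabolism can be carried out by proteins from more than one gene. GLUT1 and GLUT3, encoded by *Slc2a1* and *Slc2a3*, carry glucose across the plasma membrane, and hexokinases trap it as glucose 6-phosphate. Phosphofructokinase makes the committed step, lactate dehydrogenase interconverts pyruvate and lactate, and pyruvate dehydrogenase kinases hold back the entry of pyruvate into the mitochondrial citrate cycle. Primed pluripotent cells and the postimplantation epiblast are known for a high use of glycolysis.

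The total count on named genes was 18037342 to 18724038 per library. Levels are given as FPKM, which divides the deposited count by the table's gene length and by that total, and are written as mean ± SD. On a gene of 1 kb, 1 count was worth 0.0534 to 0.0554 FPKM. The SDs are taken over the 3 libraries, so they hold differences between libraries as well as counting error. Replicate 1 stood apart from the other libraries, with a biological coefficient of variation of 0.153 over all 3 libraries and 0.0530 without it. The epiblast markers *Pou5f1*, *Sox2*, and *Nanog* were at 648, 119, and 171 FPKM, and *Fgf5* and *Otx2* at 3.89 and 5.08 FPKM. The summed level of 6 fibroblast markers was 4.18 to 6.5 FPKM per library, almost all of it from *Col1a1*, while *Dcn* and *Lum* had no count. The summed level of 5 extraembryonic endoderm markers was 0.388 to 0.470 FPKM, with *Ttr* at 0 counts, and that of 5 erythroid markers 0.278 to 0.622 FPKM, with *Hbb-bs* and *Hbb-bt* at 0 counts. The 4 neural markers summed to 36.4 to 38.1 FPKM, which came mostly from *Tubb3*, at 28.0 FPKM, and *Sox1*, at 8.18 FPKM. In bulk RNA, fewer cells of a type and less RNA per cell cannot be told apart.

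All 10 genes were at 1 FPKM or more in every library, as were 11125 of all 55421 named genes. The means of the 10 genes ranged from 4.09 FPKM for *Hk1* to 876 FPKM for *Ldha*. Their counts summed to 0.627% to 0.658% of a library. In order of level per gene length, *Ldha* was followed by *Slc2a3*, *Slc2a1*, *Hk2*, *Ldhb*, *Slc16a1*, *Pfkm*, *Pdk1*, *Pfkp*, and *Hk1*. Of the 9 neighbouring pairs in this order, 6 had ranges over the 3 libraries that were apart. The pairs that overlapped were *Slc2a3* with *Slc2a1*, *Hk2* with *Ldhb*, and *Ldhb* with *Slc16a1*, so those neighbours did not differ beyond their spread. No test was made between genes, because with 3 libraries the smallest two-sided p of an exact sign test is 0.25.

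**Figure D1:**
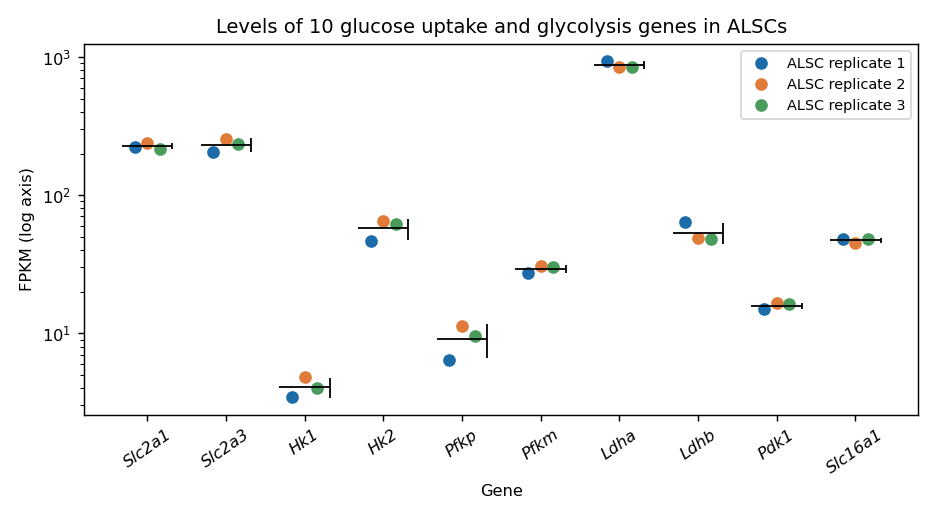
FPKM of the 10 genes (log axis) in the 3 ALSC libraries, 1 point per library, with the mean as a horizontal line and ± 1 SD as a vertical bar at its right end. *Ldha* lies above all others at 840 to 937 FPKM, and *Hk1* lies lowest at 3.45 to 4.81 FPKM.

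Among the 10 genes, those of glucose uptake came next after *Ldha*. *Slc2a1* (ENSMUSG00000028645; GRCm38 chromosome 4, 119108711 to 119137983), whose product GLUT1 is the widespread basal glucose carrier, was at 224, 237, and 215 FPKM in replicates 1, 2, and 3, from 14194, 15560, and 13599 counts. *Slc2a3* (ENSMUSG00000003153; chromosome 6, 122727809 to 122801640), whose product GLUT3 has a high affinity for glucose and is known from neurons and the early embryo, was at 203, 255, and 235 FPKM, from 26667, 34560, and 30692 counts. *Slc2a3* was below *Slc2a1* in replicate 1 and above it in replicates 2 and 3, at a ratio of 1.03 ± 0.101 (SD, n = 3). In all 3 libraries 11125 genes reached 1 FPKM, and *Slc2a1* lay above 97.7% and *Slc2a3* above 97.8% of these. *Slc2a1* made up 47.9% ± 2.42 and *Slc2a3* 48.9% ± 2.49 of the summed FPKM of 12 glucose transporter genes (SD, n = 3). Of the other 10 transporters, *Slc2a8*, at 8.52 FPKM, was the highest, and the insulin-regulated carrier *Slc2a4* was at 2.54 FPKM. *Slc2a2*, the carrier of liver and pancreatic beta cells, had 0 counts in every library, and the sodium-coupled carriers *Slc5a1* and *Slc5a2* had at most 3.

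The similar level of both transporters rested on the gene length used. The table's length of *Slc2a3* is 7245 bases, while its longest coding transcript in GENCODE M21 has 3959 bases. For *Slc2a1* these lengths are 3506 and 3260 bases. Per length of the coding transcript, *Slc2a3* was at 423 ± 47.3 FPKM and *Slc2a1* at 242 ± 11.9 FPKM (SD, n = 3), with ranges that did not overlap. The ratio was then 1.55, 1.83, and 1.86 in replicates 1, 2, and 3, above 1 in all 3 libraries. Which transcripts the reads came from was not tested.

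*Hk2* led the hexokinases, which phosphorylate glucose on entry. *Hk2* (ENSMUSG00000000628; chromosome 6, 82725025 to 82774454), an inducible hexokinase known from muscle and many proliferating cells, was at 46.3, 65.1, and 61.4 FPKM in replicates 1, 2, and 3. *Hk1* (ENSMUSG00000037012; chromosome 10, 62268855 to 62379908), the widespread hexokinase of brain and red cells, was at 3.45, 4.81, and 4.02 FPKM. Both were lowest in replicate 1, and *Hk2* was above *Hk1* in each library without overlap. Their ratio was 13.4, 13.5, and 15.3, which gave 14.1 ± 1.03 (SD, n = 3), and it was 7.64 ± 0.560 (SD, n = 3) per length of the coding transcript. *Hk2* made up 92.9% ± 0.449 of the summed FPKM of 5 hexokinase genes (SD, n = 3). *Hk3* was at 0.109 FPKM. *Hkdc1* had 3 counts or fewer in every library.

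Neither phosphofructokinase gene among the 10 was the leading one of its family. *Pfkm* (ENSMUSG00000033065; chromosome 15, 98092589 to 98132451), the muscle-type subunit, was at 27.1, 30.9, and 29.9 FPKM in replicates 1, 2, and 3. *Pfkp* (ENSMUSG00000021196; chromosome 13, 6579768 to 6648777), the platelet-type subunit, was at 6.37, 11.3, and 9.53 FPKM, and was lowest in replicate 1. *Pfkl*, the liver-type subunit, was at 85.7, 88.3, and 82.5 FPKM and was above both in every library. It made up 69.1% ± 2.45 of the FPKM of the 3 genes, *Pfkm* 23.7% ± 0.886, and *Pfkp* 7.28% ± 1.73 (SD, n = 3). The order of *Pfkm* and *Pfkp* depended on the length used. The table gives *Pfkp* 13401 bases, 3.23 times its longest coding transcript of 4145 bases, the largest such ratio among the 10 genes. The ratio of *Pfkm* to *Pfkp* was 3.38 ± 0.791 with the table's length and 1.21 ± 0.284 per length of the coding transcript (SD, n = 3), where it was 1.53, 0.980, and 1.13 in replicates 1, 2, and 3 and the ranges overlapped. *Pfkp* overlaps *Pitrm1* on the opposite strand, which had 2880 to 3297 counts, and *Pfkm* overlaps *Senp1* on the opposite strand, which had 951 to 1329. No source used here says whether counting was strand-specific, and reads in these overlaps are uncertain. Of the 50-base words of the *Pfkp* transcript, 82.9% were found in *Pfkp* alone and the rest also in *Pitrm1*.

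Of the genes that tune phosphofructokinase through fructose 2,6-bisphosphate, *Pfkfb3*, the isoform with the strongest kinase activity, was at 11.1 ± 2.84 FPKM (SD, n = 3). *Tigar*, which works in the opposite direction as a phosphatase, was at 9.66 ± 0.493 FPKM (SD, n = 3). *Pfkfb1* was at 3.45 FPKM, and *Pfkfb2* and *Pfkfb4* were under 1 FPKM in every library.

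*Ldha* was the most abundant of the 10 genes. *Ldha* (ENSMUSG00000063229; chromosome 7, 46841475 to 46855627), whose subunit favours the reduction of pyruvate to lactate, was at 937, 849, and 840 FPKM in replicates 1, 2, and 3, from 56127, 52635, and 50154 counts. *Ldhb* (ENSMUSG00000030246; chromosome 6, 142490249 to 142507957), whose subunit prevails in heart and favours the use of lactate, was at 64.0, 48.9, and 47.9 FPKM. Both were highest in replicate 1, and their ranges lay far apart. The ratio of *Ldha* to *Ldhb* was 14.6, 17.4, and 17.5, which gave 16.5 ± 1.63 (SD, n = 3), and it was 25.0 ± 2.47 per length of the coding transcript (SD, n = 3). *Ldha* made up 94.3% ± 0.567 of the summed FPKM of 3 lactate dehydrogenase genes (SD, n = 3), and the testis gene *Ldhc* had at most 2 counts. *Ldha* lay above 99.6% of the genes that reached 1 FPKM in each library. Some of its reads could have been shared with copies, since 83.4% of the 50-base words of its longest coding transcript occurred in no other annotated gene. The processed pseudogene *Ldha-ps2* had 177, 180, and 188 counts, far fewer than *Ldha*, while *Ldha-ps* had at most 3 and *Ldha-ps3* had none. The words were shared with 14 genes, among them *Gm5452* and *Gm9247*, whose counts were not looked at. For *Ldhb*, 73.0% of the words were unique, and the others were shared with *Gm5514*, whose counts were not looked at either.

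The start regions of the leading and the lesser gene at the hexokinase and lactate dehydrogenase steps are shown so that their letters can be compared. They are the 250 bases before an annotated start, from RefSeq on GRCm38.p6, read 5′ to 3′ on the strand of the gene. Capitals mark the letters ACGTG on either strand (written CACGT on the other), the core of the hypoxia response element bound by HIF, a transcription factor known to act on genes of glycolysis. The E-box CACGTG, which MYC and its partners bind, contains these letters.
*Ldha*, chr7:46845554-46845803, plus strand: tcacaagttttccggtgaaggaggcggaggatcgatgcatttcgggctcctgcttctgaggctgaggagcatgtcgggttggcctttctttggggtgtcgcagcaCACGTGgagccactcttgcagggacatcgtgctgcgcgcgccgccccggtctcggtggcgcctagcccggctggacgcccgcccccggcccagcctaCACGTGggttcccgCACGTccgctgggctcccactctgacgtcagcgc
*Ldhb*, chr6:142507958-142508207, minus strand: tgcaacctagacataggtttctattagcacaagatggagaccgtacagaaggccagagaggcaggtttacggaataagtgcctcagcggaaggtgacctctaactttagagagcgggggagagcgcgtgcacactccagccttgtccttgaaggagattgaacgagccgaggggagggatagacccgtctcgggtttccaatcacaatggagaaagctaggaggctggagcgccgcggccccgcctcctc
*Hk2*, chr6:82774455-82774704, minus strand: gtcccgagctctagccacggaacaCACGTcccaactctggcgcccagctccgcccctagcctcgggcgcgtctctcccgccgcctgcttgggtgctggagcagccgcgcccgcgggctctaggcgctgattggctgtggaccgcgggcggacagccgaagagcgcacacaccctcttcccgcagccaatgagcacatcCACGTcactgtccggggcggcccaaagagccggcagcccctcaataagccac
*Hk1*, chr10:62379909-62380158, minus strand: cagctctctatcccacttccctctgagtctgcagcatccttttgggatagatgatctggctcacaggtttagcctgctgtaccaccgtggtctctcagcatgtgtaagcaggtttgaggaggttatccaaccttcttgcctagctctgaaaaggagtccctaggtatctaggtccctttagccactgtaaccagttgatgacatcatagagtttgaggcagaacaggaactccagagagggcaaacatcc

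The *Ldha* region held CACGTG at 2 places and CACGT at a further one, and the *Hk2* region held CACGT at 2 places. A second annotated start region of *Ldha*, not shown, held none, as did the *Ldhb* region and both annotated *Hk1* start regions. The table had 15 start regions for 9 of the 10 genes, *Slc2a3* having no entry. ACGTG on either strand was found in 6 of these 15 regions and in 5 of the 9 genes (*Slc2a1*, *Hk2*, *Pfkm*, *Ldha*, and *Slc16a1*), and in 16.6% of all 32851 start regions of the same length. CACGTG was found in 3 of the 15 regions (*Pfkm*, *Ldha*, and *Slc16a1*) and in 6.02% of all regions. The letters did not go with the leading gene at every step. *Pdk1*, which led its family, had ACGTG in neither of its annotated start regions. *Pfkm* and *Slc16a1*, which held it, did not lead theirs. The start regions of *Pfkl* and *Slc16a3*, which did, were not looked at one by one. These counts describe letters, and binding was not measured.

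Downstream of pyruvate, *Pdk1* led its family by a small margin and *Slc16a1* came second in its own. *Pdk1* (ENSMUSG00000006494; chromosome 2, 71873224 to 71903858), a kinase that inactivates pyruvate dehydrogenase, was at 14.9, 16.5, and 16.2 FPKM in replicates 1, 2, and 3. *Pdk3* was at 12.7, 11.9, and 12.7 FPKM, below *Pdk1* in all 3 libraries without overlap of the ranges, at a ratio of *Pdk1* to *Pdk3* of 1.28 ± 0.108 (SD, n = 3). Per length of the coding transcript that ratio was 1.59 ± 0.133 (SD, n = 3). *Pdk1* made up 49.5% ± 1.79 of the FPKM of 4 kinase genes (SD, n = 3), with *Pdk2* at 3.02 and *Pdk4* at 0.698 FPKM.

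*Slc16a1* (ENSMUSG00000032902; chromosome 3, 104638668 to 104658462), whose product MCT1 carries lactate and pyruvate with a proton, was at 48.0, 45.1, and 48.1 FPKM in replicates 1, 2, and 3. *Slc16a3*, whose product MCT4 is the exporter known from highly glycolytic cells, was at 86.4, 92.8, and 86.0 FPKM. *Slc16a3* was above *Slc16a1* in all 3 libraries, at a ratio of 1.88 ± 0.154 (SD, n = 3), and *Slc16a1* made up 34.7% ± 1.79 of the FPKM of 4 carrier genes (SD, n = 3). *Slc16a7*, which encodes MCT2, had 0 counts in every library. Of the chaperones that bring these carriers to the membrane, *Bsg* was at 254 FPKM and *Emb* at 21.4 FPKM.

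**Figure D2:**
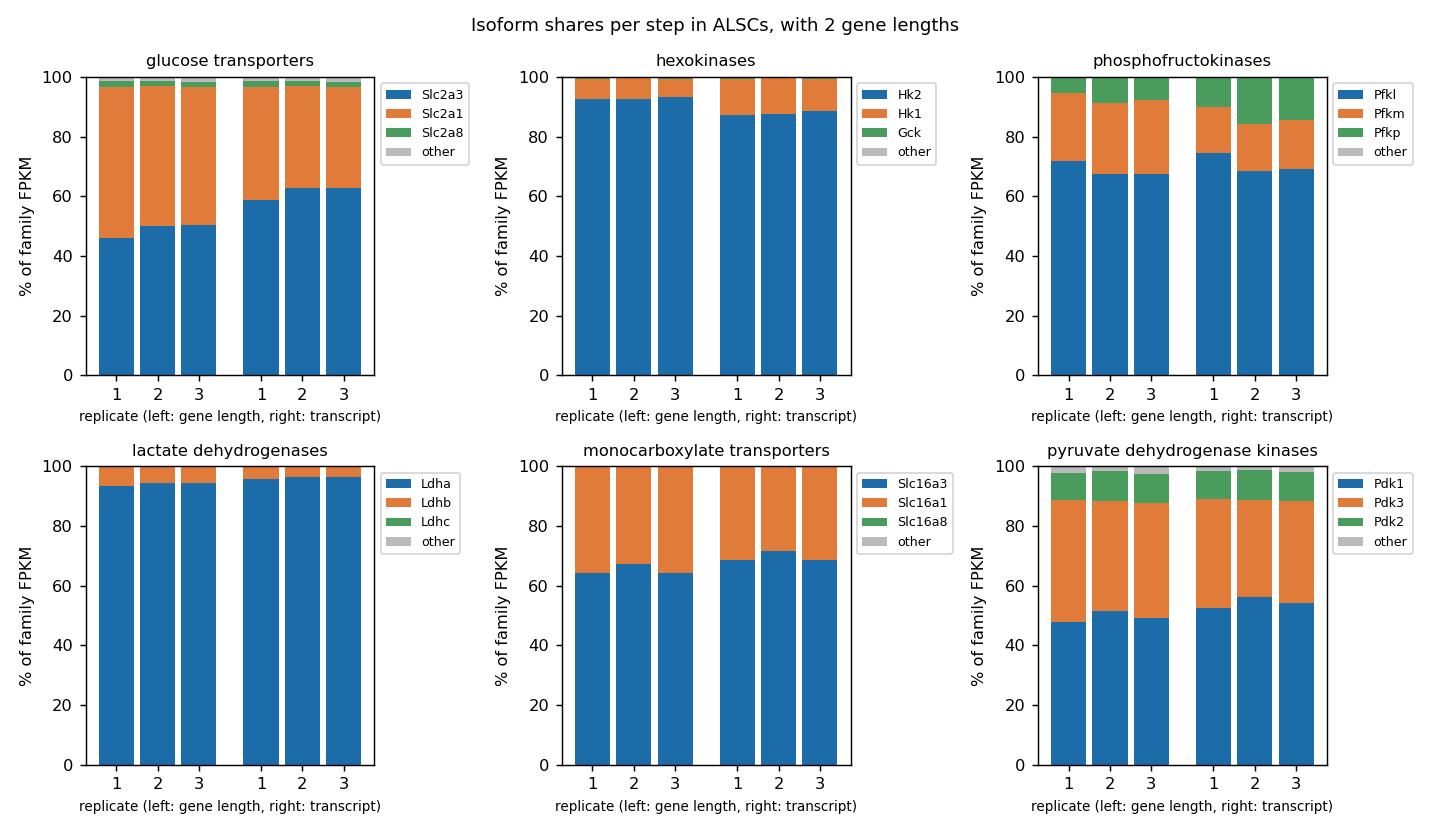
Percent of the summed FPKM of each gene family taken by its genes, 1 stacked bar per ALSC library (replicates 1 to 3), computed with the gene length of the deposited table (left bars) and with the longest coding transcript (right bars). *Hk2* and *Ldha* take most of their families with both lengths, while *Slc2a1* takes 47.9% with the first and 35.4% with the second.

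At several steps of glycolysis that the 10 genes do not cover, 1 gene was far above the others. *Pkm*, which encodes pyruvate kinase, was at 942 FPKM against 0.0729 FPKM for the liver gene *Pklr*. *Pgk1* was at 831 FPKM while the testis gene *Pgk2* had 0 counts, and *Aldoa* was at 653 FPKM against 32.6 FPKM for *Aldoc*. *Eno1*, *Pgam1*, *Tpi1*, and *Gpi1* were at 431, 429, 397, and 116 FPKM, and *Eno3* was at 29.4 FPKM. *Gapdh* stood out, at 5.31, 86.5, and 51.4 FPKM in replicates 1, 2, and 3, from 397, 6697, and 3835 counts. Only 17.5% of the 50-base words of its longest coding transcript were unique to it among annotated genes, and the others were shared with 222 genes. Its level is therefore uncertain, and the part of these copies in its spread was not tested. Of *Pgk1* and *Eno1*, too, 32.0% and 27.8% of the words were unique. In all, 11 of the 16 genes of these steps were at 1 FPKM or more in every library, as were 11125 of all 55421 named genes.

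**Figure D3:**
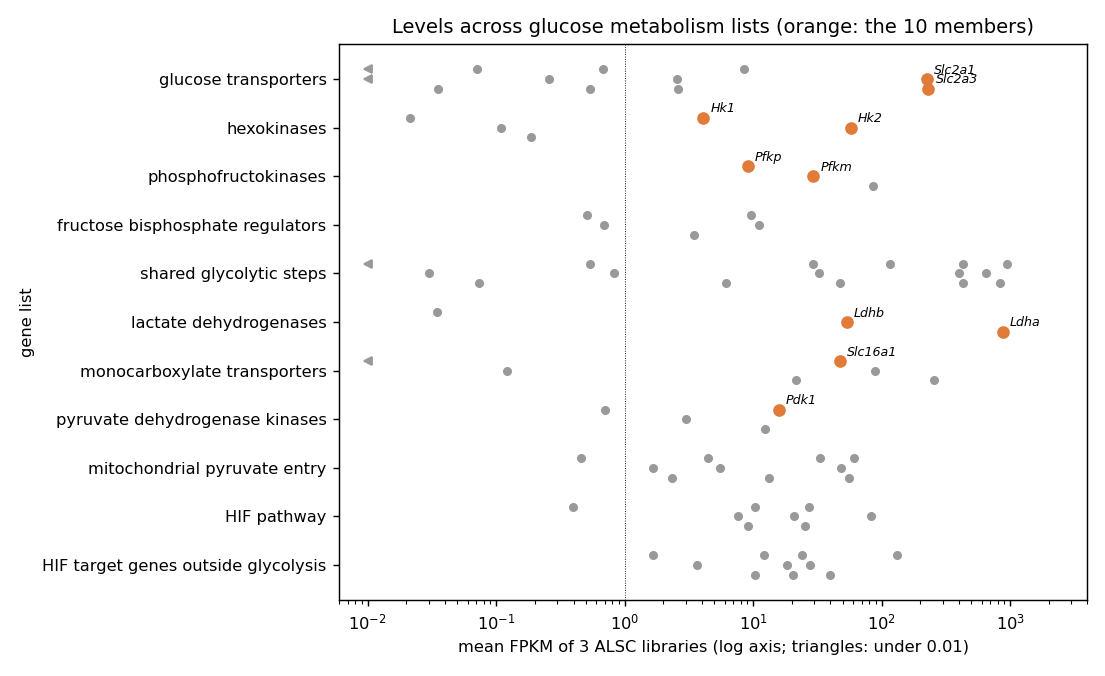
Mean FPKM over the 3 ALSC libraries (log axis) of the genes of 11 lists of glucose metabolism and the HIF pathway, 1 point per gene, with the 10 genes of this report in orange and a dotted line at 1 FPKM. *Ldha* reaches 876 FPKM, while *Pfkp* and *Slc16a1* lie below another gene of their family.

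Whether the counts of a gene differed between the libraries by more than counting error was asked of the counts with a chi-square homogeneity test, scaled with edgeR's TMM library sizes and adjusted over all genes tested. The test allows for no ordinary variation between cultures, so genes with many counts pass it at small differences. Of the 10 genes, 8 passed it at an adjusted p below 0.05, against 47.2% of the 16944 genes tested and 66.9% of the 10577 genes that averaged 100 counts or more, as all 10 did. *Pfkm* and *Pdk1* did not pass (adjusted p = 0.126 and 0.379, chi-square test), although both did when the libraries were scaled by their totals alone. Of the 8, *Slc2a1*, *Ldha*, *Ldhb*, and *Slc16a1* were higher in replicate 1 than in the mean of the others after TMM scaling, against 23.4% of all genes tested. For *Slc2a1* this direction depended on the scaling, since by FPKM replicate 1, at 224, lay below the mean of the others, at 226. *Slc2a3*, *Hk1*, *Hk2*, and *Pfkp* were lower in replicate 1, against 23.8%. Both of these shares are over all genes tested, many with fewer counts than the 10 genes. Shares by direction were not taken over genes that averaged 100 counts or more. Without replicate 1, 5 of the 10 genes passed (*Slc2a1*, *Slc2a3*, *Hk1*, *Pfkp*, and *Slc16a1*), against 8.11% of 16062 genes tested and 11.7% of those that averaged 100 counts or more. The calls of *Hk2*, *Ldha*, and *Ldhb* were lost (adjusted p = 0.0910, 0.764, and 0.966, chi-square test). Without replicate 2 the calls of *Hk1* and *Slc16a1* were lost (adjusted p = 0.109 and 0.169, chi-square test), and without replicate 3 that of *Slc2a1* (adjusted p = 0.939, chi-square test).

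The size of the spread was modest for most of the 10 genes. The coefficient of variation of FPKM ran from 3.66% for *Slc16a1* to 27.6% for *Pfkp*, with a median of 8.93%. Over all genes tested the median was 14.8%, and 10.6% over the 10577 genes that averaged 100 counts or more. The log2 ratio of replicate 1 to the mean of replicates 2 and 3, after TMM scaling, was largest for *Pfkp*, at -0.64, and *Ldhb*, at 0.47. It was -0.38 for *Hk2* and 0.22 for *Ldha*.

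These ratios moved with gene length. In 20 groups of genes by length, the median log2 ratio went from 0.39 in the shortest group, of about 685 bases, to -0.53 in the longest, of about 15642 bases. By the table's length *Ldhb* is the shortest of the 10 genes, at 1570 bases, and *Pfkp* the longest, at 13401 bases. They lay at the ends of the same trend. By the longest coding transcript *Pfkp* has 4145 bases, and *Hk2*, at 5513 bases, is the longest of the 10. The trend was taken on the table's length only, so the values with trends removed rest on that length. Once the trends with gene length and GC content were taken out, the ratio was -0.11 for *Pfkp*, 0.17 for *Ldhb*, 0.15 for *Ldha*, and -0.22 for *Hk2*. It was -0.0027 for *Hk1*, down in size from -0.29. For *Slc2a3* it changed sign, from -0.20 to 0.027, so replicate 1 is lower in *Slc2a3* only with the trends left in. The ratio of *Pdk1* changed sign as well, from -0.061 to 0.14. The cause of the trend with length was not tested.

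**Figure D4:**
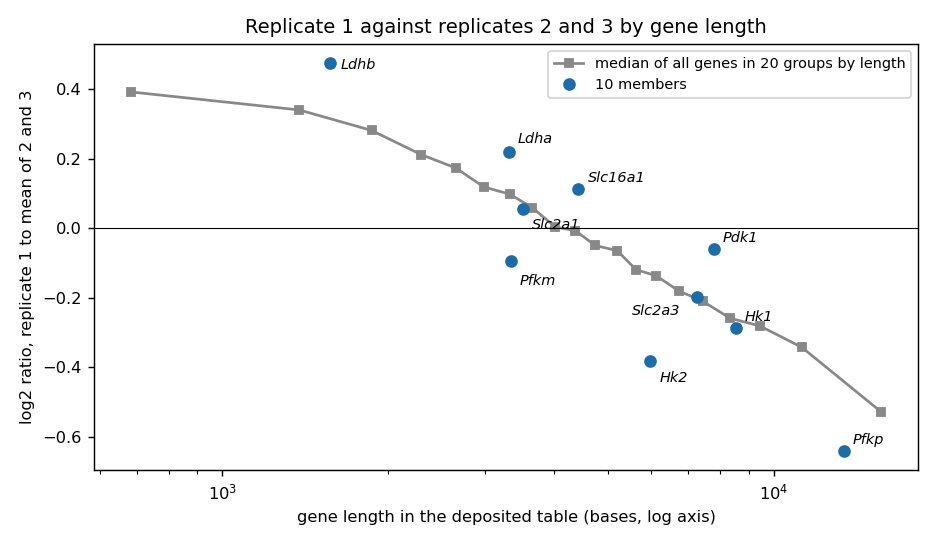
Log2 ratio of replicate 1 to the mean of replicates 2 and 3 against gene length (log axis), with the medians of 20 groups of all genes by length (grey) and the 10 genes (blue). The median goes from 0.39 to -0.53 with length, and *Slc2a1*, *Slc2a3*, and *Hk1* lie close to it while *Hk2* lies below and *Pdk1* above.

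The other 54 genes of the glucose lists were chosen for their place in the pathway. Of the 46 that could be tested, 25 varied between the libraries (adjusted p below 0.05, chi-square test), 17 of them higher and 8 lower in replicate 1. Without replicate 1, where fewer of them could be tested, 9 varied. Over all genes tested, 47.2% varied, 23.4% with a higher and 23.8% with a lower value in replicate 1. Of genes that averaged 100 counts or more, 66.9% varied. Without replicate 1 these shares were 8.11% of all genes tested and 11.7% of those that averaged 100 counts or more. The median log2 ratio of replicate 1 was 0.045 for these genes, -0.078 for the 10 genes, and -0.0033 for all genes tested. With the trends removed it was 0.052 for 32 of the other genes and 0.032 for the 10 genes.

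The genes whose levels over the 3 libraries were closest to those of the most abundant members were found by Euclidean distance of log2(FPKM + 1), which with 3 libraries of 1 condition reflects mostly the level. Closest to *Ldha* were *Tubb5* at a distance of 0.0476, *Rpl3-ps1* at 0.0553, and *Pgk1* at 0.132. Closest to *Slc2a1* were *Pabpc1*, *P4hb*, and *Pcna*, at 0.0974 to 0.167. *Slc2a3* lay closest to *Kpnb1*, at 0.0739, followed by *Pabpc1* and *Trim28*. *Hk2* lay closest to *Eif4ebp2*, at 0.0415, followed by *Srebf2* and *Actn4*.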

How the data were processed

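RNA of 3 ALSC libraries was prepared with a TruSeq kit per the labels, and the authors mapped paired-end reads to GRCm38. The submitters' processing notes name HISAT2 2.0.5. The counting program, its annotation, and its use of strand are not given in the sources used here. The values used are raw read counts per gene from 1 table that the authors deposited. Its 3 other count columns match no sample of this series and were not used. The 317 rows without a gene name (0.165% to 0.182% of the counts) were left out of totals and tests.

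FPKM used the table's gene length and the total on named genes. Genes with at least 10 counts in total entered a chi-square homogeneity test against TMM library sizes, Benjamini-Hochberg adjusted at 0.05. The script was tested on simulated counts that held counting error only, so this does not tell how the test behaves with variation between cultures. At most 3 counts in every library counted as not detected. Trends were medians in 20 groups, first on length and then on GC content, over genes that averaged 100 counts or more, of which 99.96% had a GC content. GC content, transcript lengths, and 50-base words came from GENCODE M21, which has the same build. *Aldoa* names 2 rows, and the row that starts where the RefSeq record does was used. Library sizes came from edgeR 4.0.16 and DESeq2 1.42.0 in R 4.3.3. Other steps ran in Python 3.11.15, with SciPy 1.17.1 for tests, pandas 2.3.3 and NumPy 2.4.6 for tables, and matplotlib 3.10.9 for plots.

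The 10 genes and the lists were chosen with earlier results of these data known. Named were the 10 genes, the genes of the same steps, up to 4 genes of highest level in each list, the markers, copies of the 10 genes, and the 3 genes closest in level to *Ldha*, *Slc2a1*, *Slc2a3*, and *Hk2*. Other genes named from these lists, such as *Arnt*, *Epas1*, *Car9*, *Pcx*, *Mpc1*, and *Mpc2*, were chosen after their values were seen. Alternatives were library size, gene length, unit, filters, threshold, and leaving out each replicate.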

Additional observations from a re-analysis of the deposited data

How the results depend on the processing

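No paired analysis was possible because only 1 group was analysed here. The number of genes varying between libraries ranged from 1302 to 7490 when 1 replicate was left out, and that of the 10 genes from 5 to 7, with the lowest values without replicate 1. With totals in place of TMM sizes all 10 genes varied. Gene length moved every share. Per length of the longest coding transcript, *Slc2a1* made up 35.4%, *Hk2* 87.9%, *Pfkp* 13.5%, *Ldha* 96.1%, *Pdk1* 54.3%, and *Slc16a1* 30.2% of their families. With counts and no length, they made up 31.5%, 90.5%, 15.3%, 97.2%, 73.8%, and 30.7% in the same order. *Pfkp*, which lay below *Pfkm* without overlap by the table's length, overlapped it by the transcript's. Leaving out 1 of 3 replicates cannot move a mean by as much as its SD, so that comparison tells nothing about stability. Without replicates 1, 2, and 3 in turn, the *Pfkp* share was 8.24%, 6.58%, and 7.01%. That of *Slc2a1* was 46.5%, 48.4%, and 48.7%. The ratio of replicate 1 to the others for *Slc2a3* went from -0.20 to 0.0272 once the trends with length and GC content were taken out, and was the one ratio called by the chi-square test that changed sign. The 10 FPKM levels moved by less than 1 SD with TMM sizes, DESeq2's size factors, and a total without mitochondrial genes. Per length of the longest coding transcript 8 of the 10 rose by more than 1 SD, among them *Pfkp* from 9.07 to 29.3, *Ldha* from 876 to 1597, *Hk1* from 4.09 to 8.17, and *Pdk1* from 15.9 to 23.8 FPKM, while *Hk2* and *Slc16a1* moved by less. TPM, a different unit, moved all 10. *Hk1* had the fewest counts of the 10 genes, 532 to 769, and so the largest relative counting error. Its spread over the 3 libraries still exceeded counting error (adjusted p = 1.2e-05, chi-square test). Of the other genes of the glucose lists, 9 in place of 25 varied without replicate 1, against 8.11% in place of 47.2% of all genes tested. That count was chosen after seeing the data, as were the shares over genes that averaged 100 counts or more.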

Other observations

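Genes around the HIF transcription factor, which responds to low oxygen and is known to act on *Ldha*, *Slc2a1*, and *Pdk1*, were measured alongside. *Hif1a* was at 25.1 ± 0.634 FPKM and its partner *Arnt* at 10.3 ± 1.93 FPKM, while *Epas1*, which encodes HIF2 alpha, was at 0.399 ± 0.147 FPKM (SD, n = 3 for each). Of the prolyl hydroxylases that mark HIF for breakdown, *Egln3*, itself a HIF target, was the highest at 83.3 ± 6.87 FPKM (SD, n = 3), against 27.1 FPKM for *Egln1* and 20.7 FPKM for *Egln2*. All 10 HIF target genes outside glycolysis were at 1 FPKM or more in every library, as were 11125 of all 55421 named genes. *Bnip3* led them at 131 ± 4.38 FPKM (SD, n = 3), followed by *Higd1a* at 39.5, *P4ha1* at 27.6, and *Vegfa* at 24.1 FPKM, and *Car9* was lowest at 1.65 FPKM. Of the 50-base words of *Bnip3* and *Higd1a*, 37.6% and 63.4% occurred in no other annotated gene. The oxygen level of the cultures and HIF protein were not measured here.

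At the entry of pyruvate into mitochondria, the subunits of pyruvate dehydrogenase were at 60.7 FPKM for *Pdhb*, 55.7 for *Pdha1*, 48.2 for *Dld*, and 33.0 for *Dlat*. The carrier genes lay lower, with *Mpc2* at 1.65 FPKM and *Mpc1* at 0.454 FPKM, from 15, 23, and 14 counts of *Mpc1*. Per length of the longest coding transcript *Mpc2* was at 11.8 FPKM, *Mpc1* at 0.983 FPKM, and *Dlat* at 40.0 FPKM. Of the words of *Mpc1*, 70.4% occurred in no other annotated gene. Pyruvate carboxylase, *Pcx*, was at 4.48 FPKM.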
